A study of Mus musculus with 36 samples.

Results

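The genes described here encode the proteins of the cytosolic ribosome. They were taken from the array as the rows with exactly 1 gene symbol, where that symbol is Rpl or Rps with a number (with a final a, x or l allowed), Rpl22l1, Rplp0, Rplp1, Rplp2 or Rpsa. Of 68 such rows, the transcript cluster of highest mean signal was kept for each gene, which left 66 genes (39 of the large subunit and 27 of the small subunit) among 40160 transcript clusters with a gene symbol. On this array, a gene is read by the probes of its transcript cluster. Another 17 genes of the ribosome, among them Rpl10, Rpl12, Rps2, Rps3, Rps27 and Rplp2, sit on transcript clusters that carry several symbols and are not among the 66.

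A ribosome is built from a large and a small subunit, each made of ribosomal RNA and 1 copy of most of its proteins, so cells make these proteins in matched amounts. Their mRNAs begin with a run of pyrimidines, the terminal oligopyrimidine (TOP) motif, which lets mTOR and the RNA-binding protein LARP1 control their translation together. In the preimplantation mouse embryo, ribosomal protein genes are among the first to be transcribed in quantity after the zygotic genome is activated. Several have paralogs with restricted expression, such as Rpl3l in striated muscle and Rpl10l and Rpl39l in male germ cells.

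The material was 36 blastocysts, hybridized singly, that had developed from separated blastomeres of 2-cell embryos. Zygotes came from B6C3F1 x CD1 matings after stimulation with PMSG and hCG, 48 h apart. KSOM(aa) served as medium up to bisection, after which the blastomeres were kept for another 72 h (96 h in all) in KSOM(aa), GM501 or SAGE 1-step, of which the last 2 are media of human assisted reproduction. Both half-embryos of embryos 1 to 8 stayed in KSOM(aa) (n = 16), whereas embryos 9 to 18 were split, so that the sister in GM501 (n = 10) had its counterpart in SAGE 1-step (n = 10). All half-embryos therefore share bisection and an early phase in KSOM(aa), and the arrays hold only half-embryos that reached the blastocyst stage, as whole blastocysts in which trophectoderm, epiblast and primitive endoderm are mixed. In such bulk samples, fewer cells of a type and less RNA per cell cannot be told apart.

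Signals were on the log2 scale, 1 array per half-embryo. The scan names place all KSOM(aa) arrays in a set of their own, and for comparisons with KSOM(aa) the medium and the array set cannot be told apart. The 12 arrays of embryos 9 to 14 stood apart in both media. Their signal of the small subunit ribosomal RNA (Rn18s) was 16.15 to 17.65 against 17.96 to 18.71 on the other 24, and that of Gapdh was 13.90 to 15.24 against 15.48 to 15.93, whereas the median of all tested transcript clusters was 5.33 ± 0.12 (SD, n = 12) against 5.04 ± 0.10 (SD, n = 24). The labels and scan names do not set these embryos apart from embryos 15 to 18, so the main results are also given within each set. The sets were recognized in these same data, so p-values within a set are descriptions of these arrays. Half-embryo 16b in SAGE 1-step also stood apart, with the lowest mean of the ribosomal protein genes relative to the median of its array (7.28 against 7.45 to 8.22 elsewhere). The mean signal of 6 trophectoderm markers was above background on all 36 arrays. KSOM(aa) had 13.51 ± 0.25 (SD, n = 16), GM501 had 12.84 ± 0.31 (SD, n = 10) and SAGE 1-step had 12.80 ± 0.44 (SD, n = 10). In the same order, the mean of 5 epiblast markers was 9.23 ± 0.65, 9.14 ± 0.74 and 8.53 ± 0.65 (SD). That of 4 primitive endoderm markers was 6.66 ± 0.44, 6.72 ± 0.25 and 6.65 ± 0.24 (SD). The part of these lists in the differences below was not tested. The mean of 7 cumulus and granulosa cell markers (4.08 to 4.82) was below background on all 36 arrays.

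Promoters of the genes on which the results turn are shown to give their sequence context. RefSeq windows of build GRCm38.p6, from 250 bases before to 50 bases after an annotated start, were found for 48 of the 66 genes, and where a gene had several starts the one nearest to the 5′ end of its transcript cluster was used. For 5 genes, 100 bases before and 30 bases after the start are printed, and for Rps23 the 30 bases from position 21 to 50 after the start. Capitals mark CGGAAG on either strand (the core bound by ETS factors, a known feature of ribosomal protein promoters) and TATAAA on the sense strand. They also mark CTCTTTC on the sense strand, a pyrimidine tract sought anywhere in the window. A match is a TOP motif only where it begins the mRNA, and the match printed for Rps23 ends at position 50 after the annotated start. The windows lie at chr3:28805408-28805537 (+) for Rpl22l1, chrX:37085193-37085322 (-) for Rpl39, chrX:134585554-134585683 (+) for Rpl36a, chr13:90923142-90923171 (+) for Rps23, chr17:33824533-33824662 (-) for Rps28 and chr9:120127666-120127795 (+) for Rpsa. The first 5 genes were higher in GM501 or SAGE 1-step than in KSOM(aa), and Rpsa was not.
Rpl22l1: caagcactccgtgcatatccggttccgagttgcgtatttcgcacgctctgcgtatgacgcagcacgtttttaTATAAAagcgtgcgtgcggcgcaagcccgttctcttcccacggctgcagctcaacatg
Rpl39: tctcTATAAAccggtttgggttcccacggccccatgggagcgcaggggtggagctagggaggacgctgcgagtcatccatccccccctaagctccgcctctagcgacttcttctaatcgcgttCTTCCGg
Rpl36a: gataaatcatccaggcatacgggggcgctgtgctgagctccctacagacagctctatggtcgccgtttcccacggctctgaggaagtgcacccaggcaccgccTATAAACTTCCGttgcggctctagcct
Rps23: tgggtccttcctgcacctcctctCTCTTTC
Rps28: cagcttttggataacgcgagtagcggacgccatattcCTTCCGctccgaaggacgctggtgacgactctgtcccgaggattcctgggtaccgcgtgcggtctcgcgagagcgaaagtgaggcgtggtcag
Rpsa: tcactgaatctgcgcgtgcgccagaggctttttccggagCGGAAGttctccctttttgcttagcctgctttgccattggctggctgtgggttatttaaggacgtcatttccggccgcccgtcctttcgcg
CGGAAG was found in the windows of 30 of the 48 genes (62.5%; 16 of 29 large and 14 of 19 small subunit genes) and in 16.9% of 32851 RefSeq promoters of the same length. CTCTTTC was found in 11 of 48 (22.9%), against 3.99% of all promoters. TATAAA was found in 6 of 48 (12.5%), against 8.32% of all promoters, and 5 of these 6 (Rpl22l1, Rpl32l, Rpl36a, Rpl39 and Rps28) were among the 8 genes with a window that were higher in one of the media than in KSOM(aa). Of these 8, 5 held CGGAAG and 2 held CTCTTTC. The window was searched throughout. Among the printed genes, TATAAA lay upstream of the annotated start in Rpl22l1 and Rpl39, in Rpl39 near the far end of the printed bases. It lay downstream of the start in Rpl36a and outside the printed bases in Rps28. The motifs were chosen with the sequences and the results known, and a match is no evidence of binding.

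All but 1 of the 66 genes lay above the background of the array on all 36 arrays. The exception was Rpl3l, the muscle paralog of Rpl3, which was above background on 1 array, in GM501. The mean log2 signals of the genes ran from 4.52 (Rpl3l) to 17.77 (Rpl4), with Rpl11 (7.15) and Rps15a (7.18) next to the bottom and Rpl32 (17.48) and Rplp1 (17.60) near the top. These levels cannot be read as an order of mRNA abundance, because they went with the number of probes of the transcript cluster (Spearman's rho of -0.68 across the 66 genes, a description): Rpl11 was read by 246 probes and Rplp1 by 30. Only differences of the same gene between half-embryos are compared below.

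In uncentred signals, the means of both subunits were higher in most half-embryos of embryos 9 to 14 than in KSOM(aa), and not in embryos 15 to 18. Relative to the median of the array, the mean over all 66 genes overlapped (7.45 to 8.18 in embryos 9 to 14 against 7.51 to 7.96 in KSOM(aa)). In KSOM(aa) the mean log2 signal of the 39 large subunit genes ran from 12.69 to 13.16 with a median of 12.93, and that of the 27 small subunit genes from 12.60 to 12.94 with a median of 12.73. For embryos 9 to 14 the large subunit mean was 13.06 to 13.42 (GM501) and 13.24 to 13.44 (SAGE 1-step), and the small subunit mean 12.80 to 13.17 and 12.96 to 13.20. Half-embryo 9a was the lowest of these arrays on both measures and lay within the range of KSOM(aa). In embryos 15 to 18 the large subunit mean was 12.80 to 13.19 (GM501) and 12.70 to 12.90 (SAGE 1-step), again overlapping KSOM(aa). The large minus the small subunit mean had overlapping ranges in KSOM(aa) (0.09 to 0.28, mean 0.19 ± 0.06, SD, n = 16), GM501 (0.19 to 0.28, mean 0.23 ± 0.03, SD, n = 10) and SAGE 1-step (0.13 to 0.33, mean 0.21 ± 0.06, SD, n = 10).

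**Figure D1:**
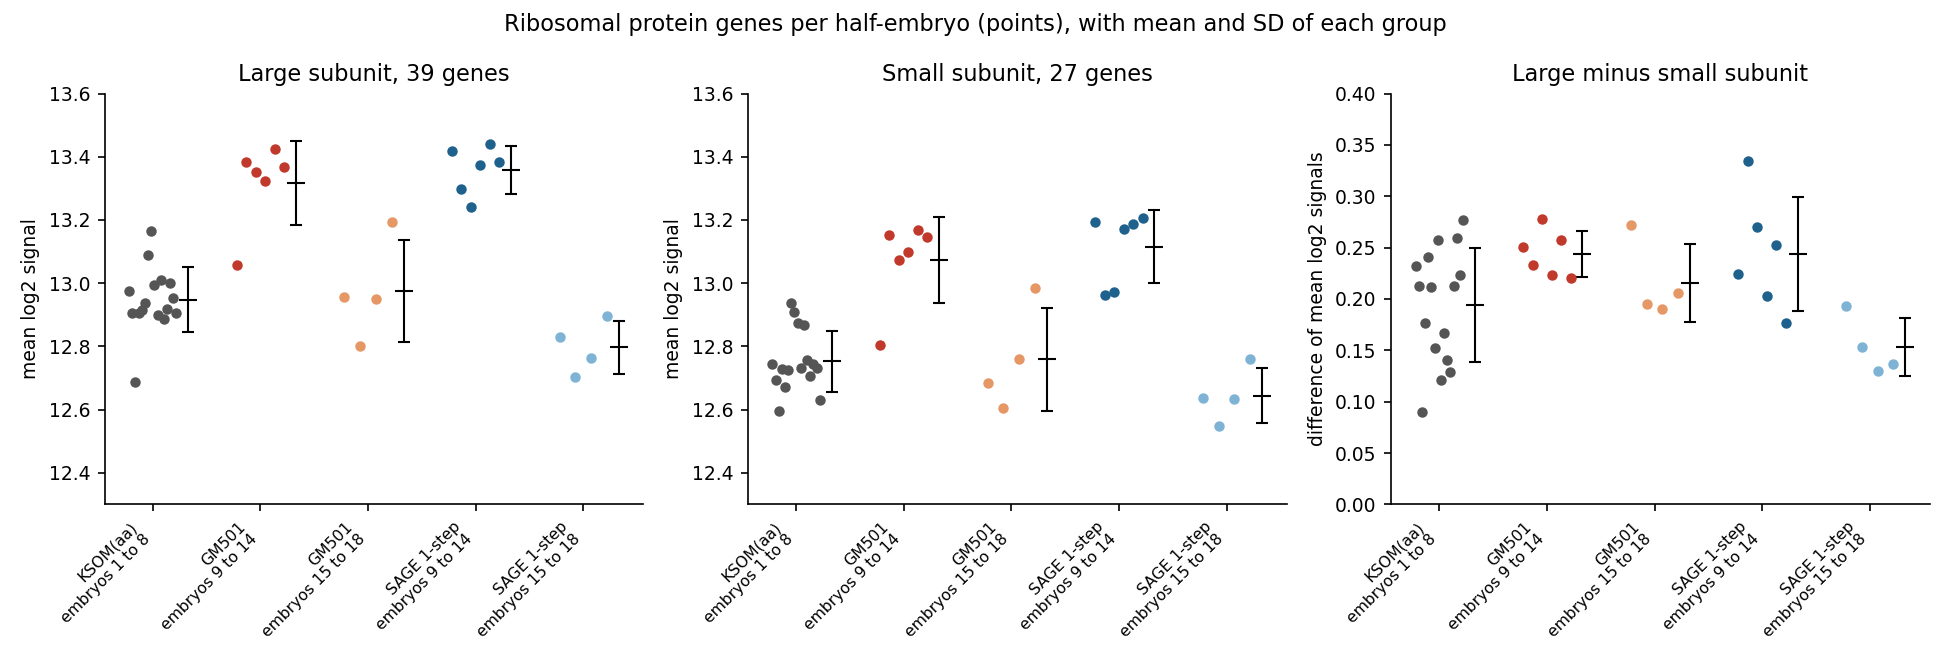
Mean log2 signal of the 39 large subunit genes, of the 27 small subunit genes, and their difference (vertical axes), for each half-embryo (points) by medium and embryo set, with mean and SD beside them. Apart from half-embryo 9a, embryos 9 to 14 sit above all half-embryos in KSOM(aa) in both subunits (large subunit 13.24 to 13.44 against 12.69 to 13.16). In every group the difference between the subunits overlaps that of KSOM(aa) (0.09 to 0.28). GM501 in embryos 9 to 14 (0.22 to 0.28) and SAGE 1-step in embryos 15 to 18 (0.13 to 0.19) do not overlap each other.

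In GM501 against KSOM(aa), 4 ribosomal protein genes were higher and 0 were lower (limma, adjusted p under 0.05 over all 40160 transcript clusters). They were Rpl22l1, a paralog of the large subunit protein Rpl22, Rpl39, a very small protein of the peptide exit tunnel, Rpl36a, of the large subunit, and Rps23, a protein of the decoding centre of the small subunit. Hence 3 of 39 large subunit genes (7.69%) and 1 of 27 small subunit genes (3.70%) were higher, where 4.06% of all tested transcript clusters were higher and 3.60% were lower, so the share of the ribosomal protein genes was near the background. Their median log2 difference was 0.22 (large subunit 0.19, small subunit 0.25) against 0.09 for all tested and 0.12 for all detected transcript clusters, and 56 of 66 genes had a difference above 0. With each array centred on the median of its tested transcript clusters, 2 genes were higher and 0 lower (2.53% higher and 6.65% lower among all), and without half-embryo 16b, which shares the estimate of the spread, 11 were higher (1836 higher and 1511 lower among all). At an unadjusted p under 0.05, 32 genes and 9693 of all 40160 transcript clusters passed. The t-test that the study names called 26 genes after adjustment, all higher, beside 2507 higher and 1621 lower transcript clusters in all. With the KSOM(aa) sisters, which share an embryo, averaged to 8 samples, Rpl22l1 alone was called (232 higher and 359 lower among all).

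Rpl22l1 (chromosome 3, 28805436 to 28807419 of mm10) had log2 signals of 12.96 to 14.61 in KSOM(aa) with a median of 14.12, 14.04 to 15.39 in GM501 with a median of 15.12, and 13.98 to 15.31 in SAGE 1-step with a median of 14.93. The groups overlapped, but 6 of 10 half-embryos in GM501 and 6 of 10 in SAGE 1-step lay above every half-embryo in KSOM(aa). GM501 differed from KSOM(aa) by 0.81 on the log2 scale (limma, standard error 0.18, adjusted p = 0.00548) and SAGE 1-step by 0.64 (standard error 0.18, adjusted p = 0.0221), higher than the KSOM(aa) mean in 9 and 8 of 10 half-embryos. The half-embryos above the KSOM(aa) range were exactly the 12 of embryos 9 to 14 (14.85 to 15.39), whereas the 8 of embryos 15 to 18 had 13.98 to 14.55. Rpl22, the paralog that most tissues use, had 8.66 to 9.21 in KSOM(aa), 8.87 to 9.62 in GM501 and 8.69 to 9.63 in SAGE 1-step, with log2 differences of 0.32 (adjusted p = 0.0905) and 0.28 (adjusted p = 0.125) that did not pass.

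Rpl39 (chromosome X, 37082520 to 37085402) had 9.87 to 11.18 in KSOM(aa) with a median of 10.46, 10.38 to 12.40 in GM501 with a median of 11.33 and 10.37 to 12.18 in SAGE 1-step with a median of 11.22. Its log2 differences were 0.70 (standard error 0.20, adjusted p = 0.0307, higher than the KSOM(aa) mean in 8 of 10) and 0.68 (standard error 0.20, adjusted p = 0.0297, 8 of 10). Rps23 (chromosome 13, 90923122 to 90924942) had 14.60 to 15.02 in KSOM(aa) with a median of 14.78, 14.70 to 15.70 in GM501 with a median of 15.25 and 14.72 to 15.80 in SAGE 1-step with a median of 15.30. All 12 half-embryos of embryos 9 to 14 lay above the KSOM(aa) range of Rps23, and 11 of 12 above that of Rpl39. The log2 differences of Rps23 were 0.42 (standard error 0.13, adjusted p = 0.0373, 8 of 10) and 0.46 (standard error 0.13, adjusted p = 0.0192, 8 of 10). Rpl36a (chromosome X, 134585654 to 134588062) passed in GM501 alone, with 11.59 to 12.21 in KSOM(aa), 11.92 to 12.61 in GM501 and 11.63 to 12.80 in SAGE 1-step. Its log2 difference of 0.39 (standard error 0.13, adjusted p = 0.0491, 10 of 10) in GM501 stood beside 0.32 (adjusted p = 0.103, 7 of 10) in SAGE 1-step, within embryos 9 to 14 it was 0.57 and 0.60 (adjusted p = 6.27e-05 and 3.05e-05) and within embryos 15 to 18 0.11 and -0.12, and the difference of 0.07 between the 2 media did not pass. Rpl39 and Rpl36a lie on the X chromosome, as does Rps4x, and Xist exceeded a log2 signal of 10 on 4 of 16 KSOM(aa) arrays and on 5 of 10 arrays for each of the other media. The part of this difference in their values was not tested.

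In SAGE 1-step against KSOM(aa), 8 ribosomal protein genes were higher and 0 lower, 6 of 39 of the large subunit (15.4%) and 2 of 27 of the small subunit (7.41%). Among all tested transcript clusters 5.13% were higher and 4.42% lower. The median log2 difference was 0.19 (large subunit 0.18, small subunit 0.21) against 0.10 for all tested and 0.12 for all detected transcript clusters, with 53 of 66 above 0. Centred arrays gave 5 higher and 0 lower genes (3.00% higher and 8.42% lower among all), and 14 genes were higher without half-embryo 16b (2407 higher and 1714 lower among all). At an unadjusted p under 0.05, 29 genes and 10611 of all 40160 transcript clusters passed, and the same t-test called 14 genes higher and 1 lower after adjustment, beside 2716 higher and 1920 lower in all. With the KSOM(aa) sisters averaged, 0 of the 66 genes were called, so each of the 8 calls was lost (280 higher and 463 lower among all). In that fit, 14 genes and 6854 of all transcript clusters passed at an unadjusted p under 0.05. Both comparisons use the same half-embryos in KSOM(aa), so they are not independent of each other. Besides Rpl22l1, Rpl39 and Rps23, the genes were Rps28, Rpl31, Rpl32, Rpl32l and Rpl37a.

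Rps28, a small protein of the small subunit, had 8.17 to 8.84 in KSOM(aa) with a median of 8.55, 8.22 to 10.55 in SAGE 1-step with a median of 9.57 and 8.25 to 9.93 in GM501 with a median of 9.25. In SAGE 1-step 6 of 10 half-embryos lay above the KSOM(aa) range, all 6 of them from embryos 9 to 14. Its log2 difference was 0.77 (standard error 0.21, adjusted p = 0.0171, higher than the KSOM(aa) mean in 7 of 10) in SAGE 1-step and 0.63 (adjusted p = 0.0596, 8 of 10) in GM501. The other 4 genes, all of the large subunit, had log2 differences from 0.25 (Rpl37a, adjusted p = 0.0302) and 0.41 (Rpl31, adjusted p = 0.0228) to 0.50 (Rpl32, adjusted p = 0.0379) and 0.57 (Rpl32l, adjusted p = 0.0194), each higher than the KSOM(aa) mean in 8 of 10 half-embryos. Rpl32l is annotated on a single stretch of chromosome 10 and carries the name of Rpl32, so their transcript clusters may read the same mRNA and are uncertain as separate genes. More widely, ribosomal protein genes have many processed copies in the genome, and signal from such copies cannot be separated here.

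**Figure D2:**
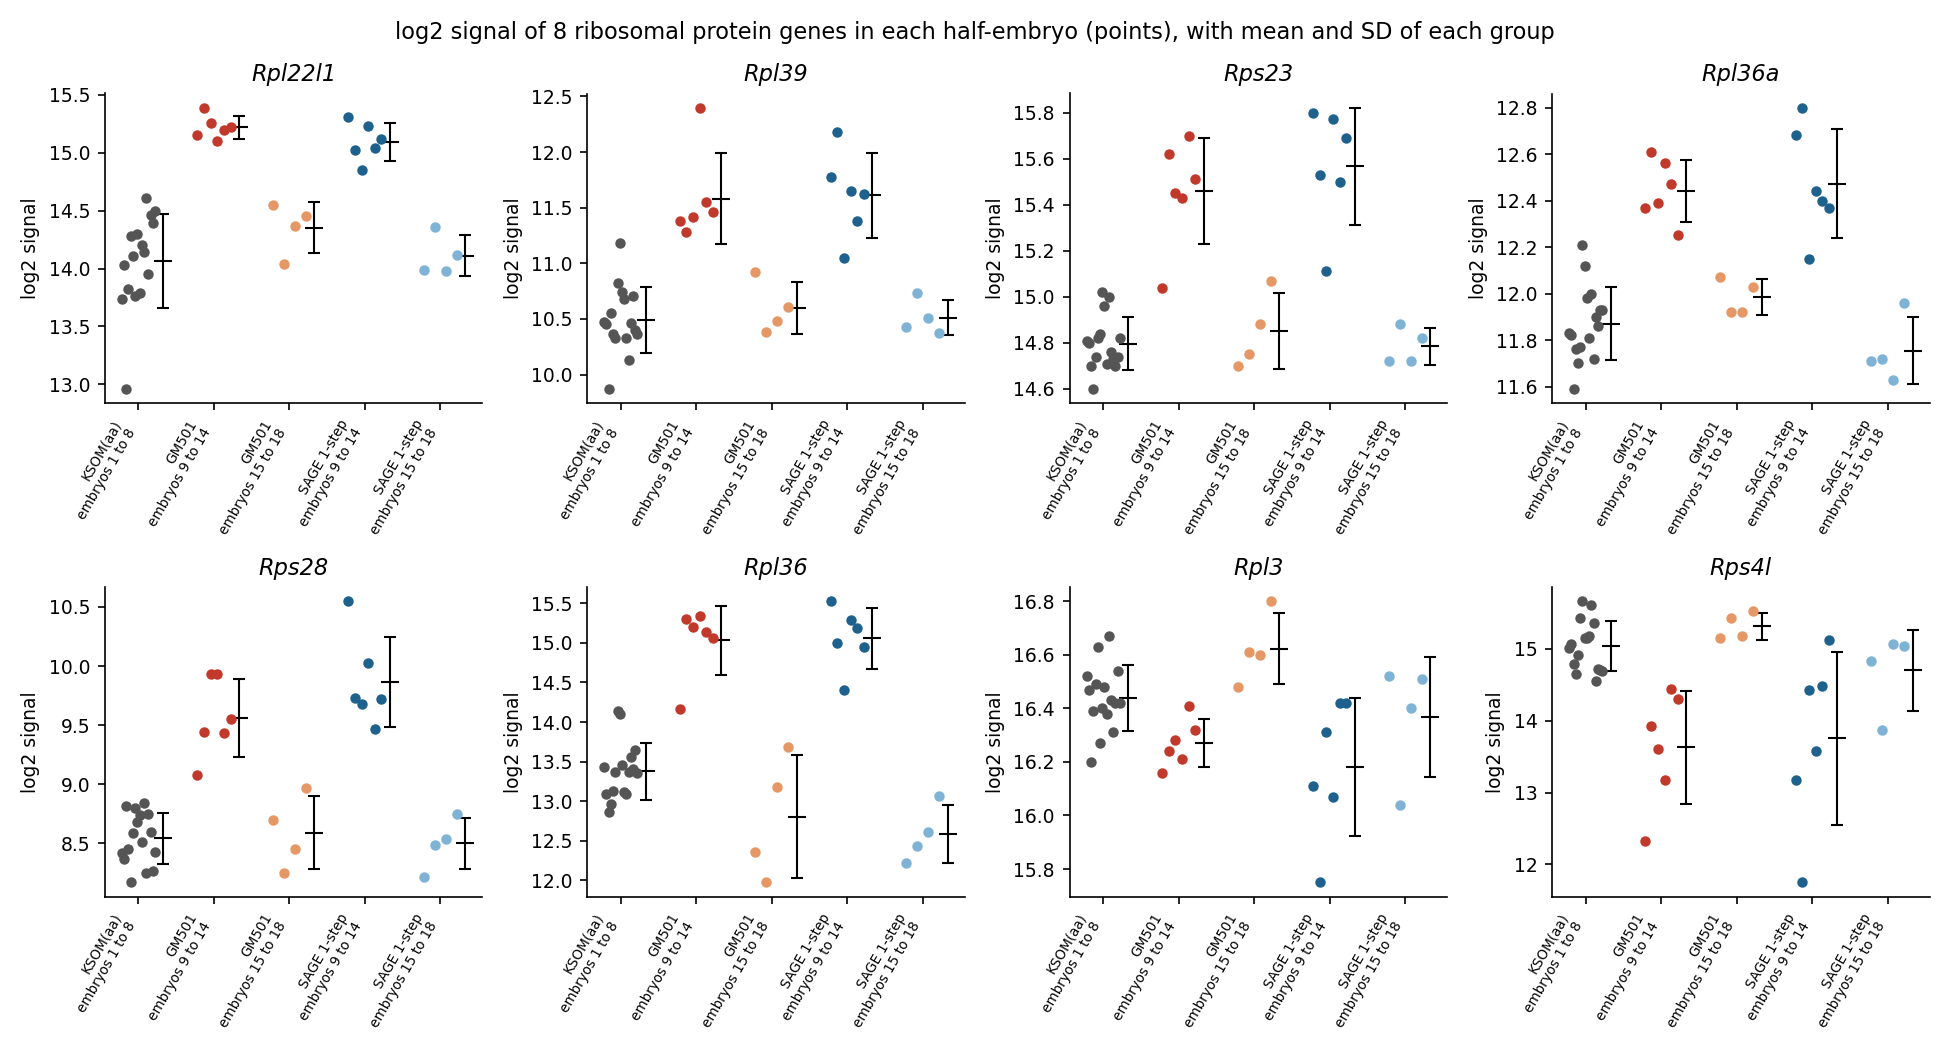
Log2 signal (vertical axes) of Rpl22l1, Rpl39, Rps23, Rpl36a, Rps28, Rpl36, Rpl3 and Rps4l in each half-embryo (points) by medium and embryo set, with mean and SD beside them. For Rpl22l1, Rps23, Rps28 and Rpl36 all 12 half-embryos of embryos 9 to 14 lie above the KSOM(aa) range, while Rps4l is low in 11 of these 12.

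Fitted within each embryo set, genes were called in embryos 9 to 14 and not in embryos 15 to 18. There 48 of 66 genes were higher than in KSOM(aa) in GM501 (72.7%, with 27 of 39 large and 21 of 27 small subunit genes) and 2 were lower, and 49 were higher in SAGE 1-step (74.2%, with 28 of 39 and 21 of 27) and 2 were lower. These sets also moved the rest of the array: 42.6% of all tested transcript clusters were higher and 9.40% lower in GM501, and 37.9% higher and 8.60% lower in SAGE 1-step. Among detected transcript clusters, the shares of higher ones were 36.3% (GM501) and 35.7% (SAGE 1-step). The ribosomal protein genes had median log2 differences of 0.35 (GM501) and 0.37 (SAGE 1-step), where the median of all tested transcript clusters was 0.22 and 0.20. When each array was centred on the median of its tested transcript clusters, fewer genes were called: 15 were higher and 10 lower in GM501 (9.66% higher and 21.2% lower among all), with 38 of 66 differences above 0, and 19 were higher and 7 lower in SAGE 1-step (9.50% and 17.8%), with 45 of 66 above 0.

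In embryos 15 to 18, limma called 0 of 66 genes in either medium, with 2 genes at an unadjusted p under 0.05 in GM501 (7570 of all 40160 transcript clusters) and 10 in SAGE 1-step (6031 of all). Among all tested transcript clusters, 0.314% were higher and 0.376% lower in GM501, and 0.251% higher and 0.481% lower in SAGE 1-step. The median log2 difference was 0.03 in GM501 and -0.10 in SAGE 1-step. With 4 half-embryos per medium, the median standard error of a gene's difference was 0.11. With each array centred, 0 genes were called, and the median was 0.13 in GM501 (57 of 66 above 0) and -0.08 in SAGE 1-step (17 of 66). The centred medians in embryos 9 to 14 were 0.06 and 0.12. After centring, the shift in GM501 was therefore not larger in embryos 9 to 14.

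Rpl36, a small protein of the large subunit, had the largest distance between the sets. Its log2 signal was 12.86 to 14.14 in KSOM(aa) with a median of 13.37, 14.16 to 15.53 in embryos 9 to 14 with a median of 15.16, and 11.97 to 13.69 in embryos 15 to 18 with a median of 12.52. All 12 half-embryos of embryos 9 to 14 lay above the KSOM(aa) range, and 5 of the 8 of embryos 15 to 18 lay below it. Within embryos 9 to 14, GM501 differed from KSOM(aa) by 1.65 on the log2 scale (limma, adjusted p = 7.26e-08) and SAGE 1-step by 1.68 (adjusted p = 4.11e-08), and within embryos 15 to 18 by -0.58 (adjusted p = 0.214) and -0.80 (adjusted p = 0.107). Over all embryos it did not pass in either medium (0.76, adjusted p = 0.215, and 0.69, adjusted p = 0.242). The difference between the sets itself was not tested, since the sets were known from the data. For the same reason, the p-values within a set, for this and all other genes, are no independent support for a difference. These fits took each half-embryo as 1 sample, without the embryo as a block. Pooled over media, embryos 9 to 14 lay 1.67 above KSOM(aa) in Rpl36, 1.17 in Rps28, 1.16 in Rpl39l, 1.11 in Rpl39, 1.09 in Rpl22l1 and 0.94 in Rps13, and the corresponding values in embryos 15 to 18 were -0.69, 0.00, -0.09, 0.06, 0.17 and -0.12. In 6 genes (Rpl22l1, Rpl23, Rpl32l, Rpl36, Rps25 and Rps28), and in 3.02% of detected transcript clusters, all 12 arrays of embryos 9 to 14 lay above the other 24. No member lay below all the others on these 12 arrays, where 0.966% of detected transcript clusters did.

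**Figure D3:**
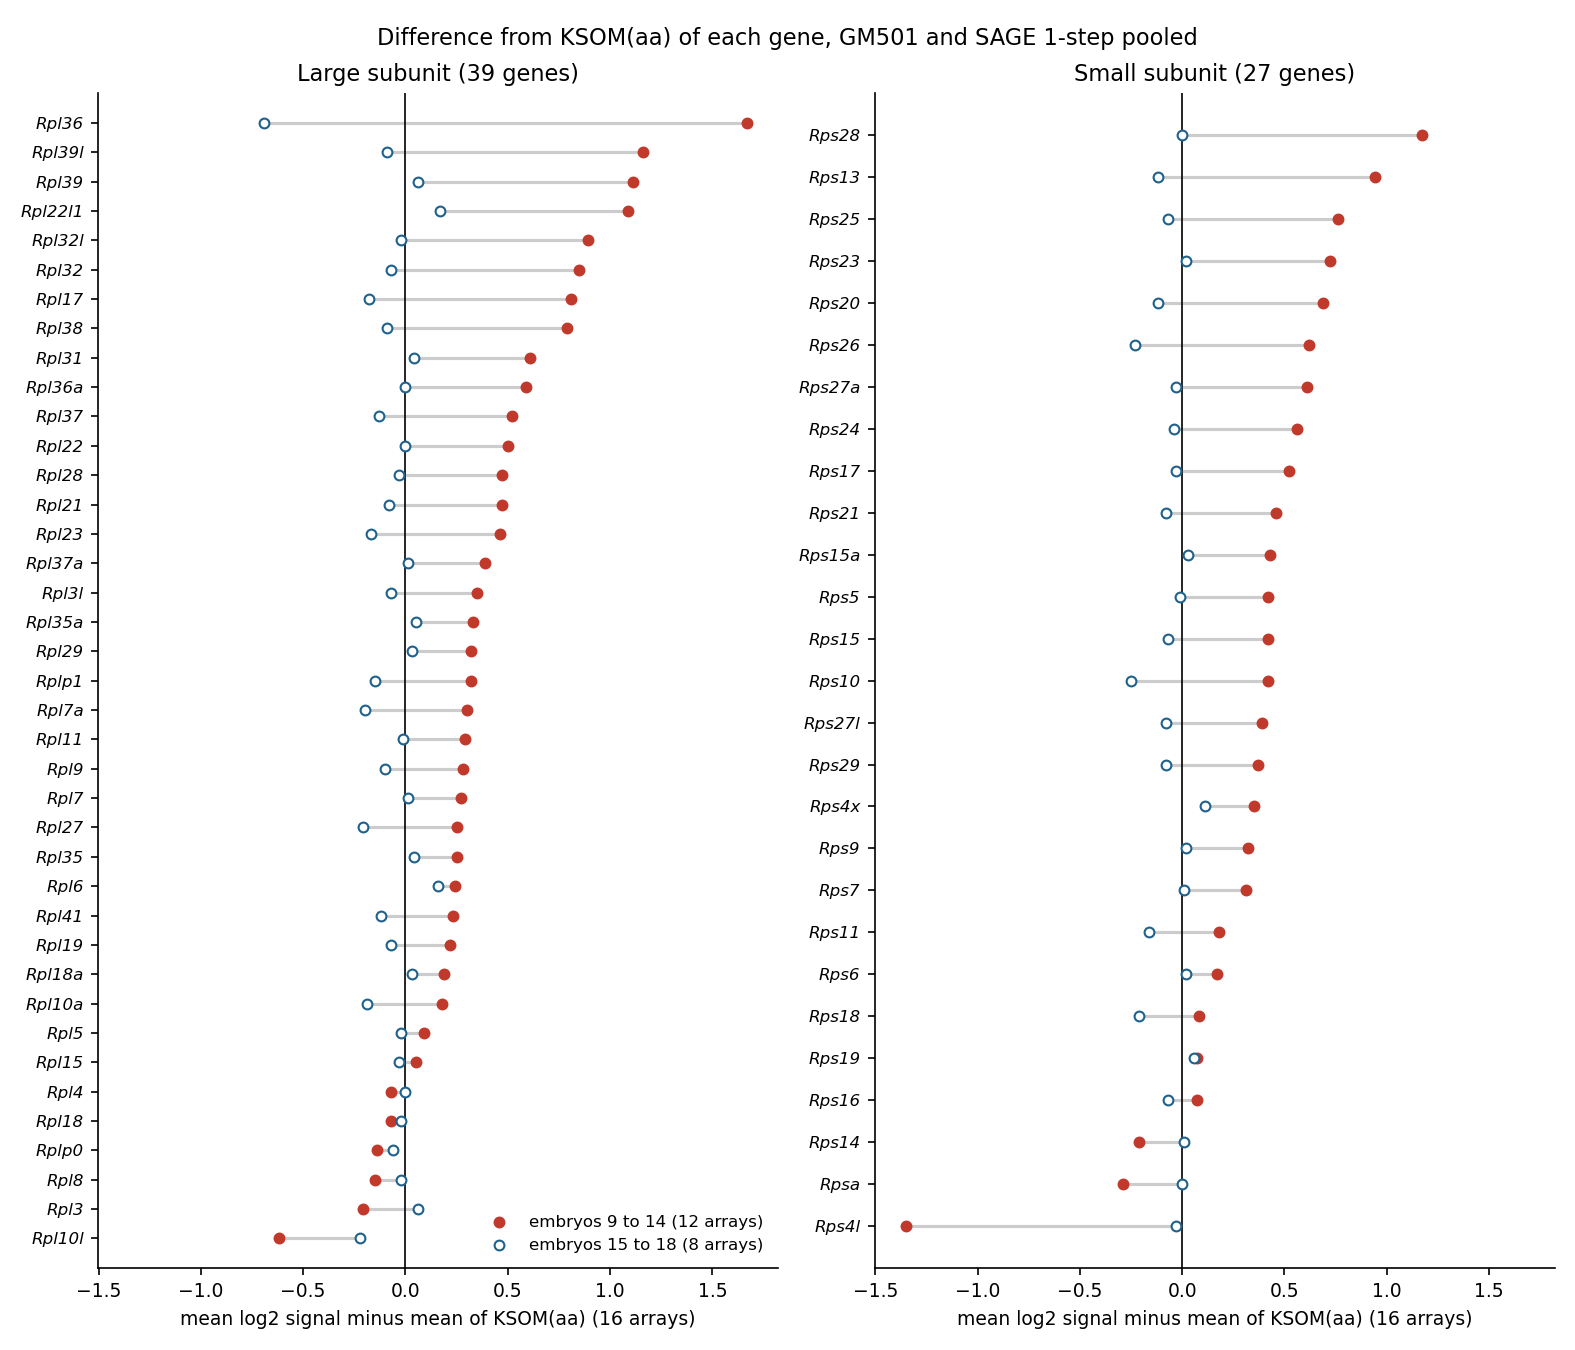
Mean log2 signal minus the mean of the 16 arrays in KSOM(aa) (horizontal axis) for each of the 66 genes, for the 12 arrays of embryos 9 to 14 (filled points) and the 8 arrays of embryos 15 to 18 (open points), both media pooled. The filled points run from -1.35 (Rps4l) to 1.67 (Rpl36) and lie above 0 in 57 genes. Of all 40160 tested transcript clusters, 30938 also lie above 0 in embryos 9 to 14. The open points run from -0.69 to 0.17.

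A few genes went against the majority in embryos 9 to 14. Rps4l, which RefSeq lists as a transcribed pseudogene related to Rps4x, had 14.55 to 15.66 in KSOM(aa) with a median of 15.04, 11.75 to 15.12 in embryos 9 to 14 with a median of 13.76 and 13.87 to 15.52 in embryos 15 to 18 with a median of 15.10. On 11 of the 12 arrays of embryos 9 to 14 it lay below the KSOM(aa) range, and within this set its log2 difference was -1.41 for GM501 (adjusted p = 7.38e-04) and -1.28 for SAGE 1-step (adjusted p = 0.00195). Rps4x, the X-linked gene of the small subunit protein, was higher there (0.33, adjusted p = 0.00342, and 0.38, adjusted p = 0.00125). Rpsa, a small subunit protein also known as the laminin receptor, was lower within embryos 9 to 14 in GM501 (-0.36, adjusted p = 0.0152), and its difference of -0.22 in SAGE 1-step (adjusted p = 0.129) did not pass. Rpl3, one of the largest ribosomal proteins, was lower there in SAGE 1-step (-0.26, adjusted p = 0.00695) and had -0.17 (adjusted p = 0.0608) in GM501. Rpl8, Rps14 and the stalk base protein Rplp0 had differences between -0.21 and -0.12 that did not pass in this set. With each array centred, all 3 passed in both media (Rpl8 -0.46 and -0.39, Rps14 -0.49 and -0.47, Rplp0 -0.41 and -0.41, the highest adjusted p being 0.00653), as did Rpsa (-0.64 and -0.47) and Rpl3 (-0.46 and -0.51). Of the other proteins with well-known roles, Rplp1 of the stalk was higher in embryos 9 to 14 (0.27, adjusted p = 0.0186, and 0.37, adjusted p = 0.00276). Rps6, the substrate of S6 kinase, was higher by 0.17 in both media (adjusted p = 0.0399 and 0.0421). Of Rpl5 and Rpl11, which bind Mdm2 when ribosome assembly is disturbed, Rpl11 was higher (0.27, adjusted p = 0.00335, and 0.30, adjusted p = 0.00195) and Rpl5 had 0.08 (adjusted p = 0.408) and 0.09 (adjusted p = 0.331). With each array centred, the calls of Rplp1 (-0.02 and 0.11), Rps6 (-0.12 and -0.08), Rpl11 (-0.01 and 0.04) and Rps4x (0.04 and 0.12) were lost.

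The size of the difference in embryos 9 to 14 went with the number in the name of the protein. Mammalian ribosomal proteins were numbered by their migration in gels, so that high numbers generally stand for small proteins with short mRNAs. Among 37 numbered large subunit genes the Spearman correlation of this number with the difference from KSOM(aa) was 0.64, and among 26 small subunit genes it was 0.51, whereas in embryos 15 to 18 it was -0.04 and -0.29. Without 7 paralogs whose number is inherited from the parent gene it was 0.66 (n = 32) and 0.50 (n = 24) in embryos 9 to 14. For the large subunit, the median difference was 0.18 in 11 genes numbered up to 10 (range -0.62 to 0.35) and 0.61 in 13 genes numbered 31 to 41 (range 0.23 to 1.67), and these ranges overlapped. For the small subunit it was 0.32 in 7 genes numbered up to 10 and 0.61 in 9 genes numbered 21 to 29. The correlation with the mean signal was 0.03 and -0.02, and with the number of probes -0.34 and -0.26. Without the paralogs, that with the number of probes was -0.3 and -0.42. The mitochondrial ribosomal proteins gave 0.37 over 70 genes. These are descriptions across genes, which share the same arrays and are not independent, and they were sought after the values had been seen.

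**Figure D4:**
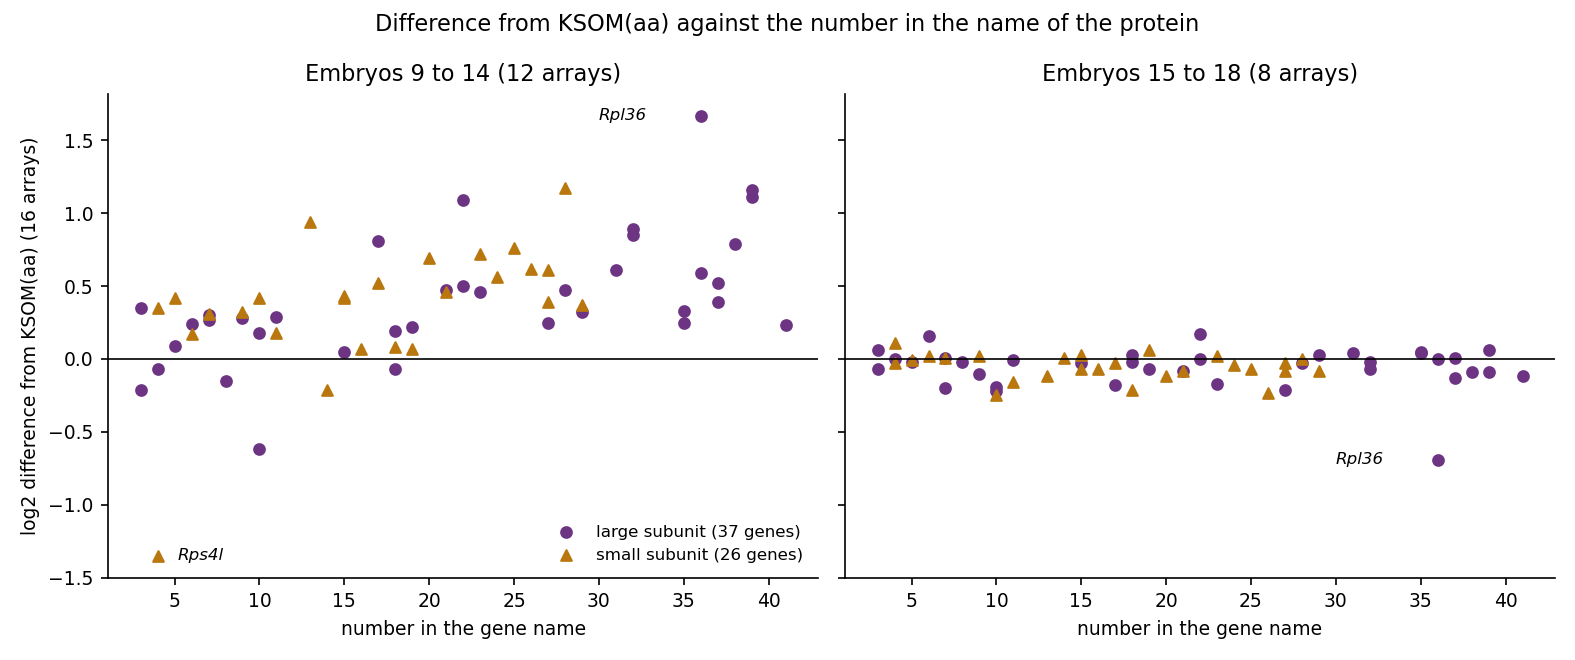
Log2 difference from the mean of KSOM(aa) (vertical axis) against the number in the gene name (horizontal axis) for 37 large subunit genes (circles) and 26 small subunit genes (triangles), in the 12 arrays of embryos 9 to 14 (left) and the 8 arrays of embryos 15 to 18 (right). The points climb from left to right in embryos 9 to 14 (Spearman 0.64 and 0.51) and not in embryos 15 to 18 (-0.04 and -0.29).

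Among the paralogs, Rpl10l and Rpl39l varied most between half-embryos in KSOM(aa), and Rps4l in GM501 and SAGE 1-step (SD 1.06 and 1.07). Rpl39l had 11.69 to 14.06 in KSOM(aa) with a median of 12.78, 12.61 to 14.66 in GM501 and 11.90 to 14.60 in SAGE 1-step. Its log2 difference was the highest of all 66 genes in GM501, at 0.82, but did not pass (adjusted p = 0.0679), and was 0.50 (adjusted p = 0.250) in SAGE 1-step. Within embryos 9 to 14 it was 1.19 (adjusted p = 6.37e-04) and 1.12 (adjusted p = 0.00126), and within embryos 15 to 18 it was 0.25 and -0.43, which did not pass. Rpl10l had 11.05 to 13.64 in KSOM(aa), 10.00 to 12.70 in GM501 and 10.59 to 12.82 in SAGE 1-step, with log2 differences of -0.27 (adjusted p = 0.576) and -0.65 (adjusted p = 0.145). Rpl39l and Rpl10l are close in sequence to Rpl39 and Rpl10, and whether their signal is their own is uncertain. Rps27l, a paralog of Rps27 known as a p53 target, had 15.30 to 15.81 in KSOM(aa), 15.32 to 16.00 in GM501 and 15.29 to 16.23 in SAGE 1-step (log2 differences of 0.17, adjusted p = 0.255, and 0.23, adjusted p = 0.109). Rpl3l had 4.09 to 4.99 over all 36 arrays.

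Between GM501 and SAGE 1-step, which share embryos and array set, limma called 0 of 66 ribosomal protein genes and 0% of all tested transcript clusters in either direction. At an unadjusted p under 0.05 it gave 0 of 66 genes and 611 of all 40160 transcript clusters, and the t-test that the study names gave 0 and 437, with 0 called after adjustment. The median log2 difference of the genes was 0.03, with a range from -0.18 (Rps13) to 0.38 (Rpl10l). Within embryos 9 to 14 it was -0.03, with 21 of 66 genes above 0 and 0 at an unadjusted p under 0.05 (1755 of all). Within embryos 15 to 18 it was 0.13, with 57 of 66 above 0 and 6 at an unadjusted p under 0.05 (1843 of all). The median of all tested transcript clusters in this set was -0.04, and half-embryo 16b is among its 4 arrays in SAGE 1-step. Without 16b, the median of the genes over all embryos was -0.01, with 32 of 66 above 0 instead of 47. After Rpl10l, the highest were Rpl39l (0.31) and Rps24 (0.17), and next to Rps13 the lowest were Rps28 (-0.14) and Rps20 (-0.11). Among sister pairs, Rpl10l was higher in GM501 in 7 of 10, Rpl39l in 8 of 10, Rps24 in 7 of 10 and Rps28 in 3 of 10. With the embryo as a replicate block, the count was also 0.

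Within KSOM(aa), ribosomal protein genes varied less than detected transcript clusters as a whole, which were not matched to them on signal level. The median SD between the 16 half-embryos was 0.15 for the 66 genes (0.15 in each subunit) against 0.35 for all detected transcript clusters. The least variable were Rpl35 (16.02 to 16.18, SD 0.04), Rpl11 (SD 0.07) and Rps6 (SD 0.08), and the most variable were Rpl10l (SD 0.62), Rpl39l (SD 0.60) and Rpl29 (SD 0.57). The spread of Rpl29 came from half-embryo 2a, at 11.15, where its sister 2b had 13.02 and the median was 13.18. Between sisters in KSOM(aa) (8 pairs) the median absolute difference per gene was 0.12 on the log2 scale (large subunit 0.11, small subunit 0.13) against 0.28 for detected transcript clusters. Between sisters kept in GM501 and SAGE 1-step (10 pairs), where it includes the medium, it was 0.14 against 0.30. By embryo, the median ran from 0.08 (embryo 3) to 0.17 (embryo 6) in KSOM(aa) and from 0.08 (embryo 13) to 0.27 (embryo 9) across the 2 media.

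Genes that act on ribosomes or their mRNAs were read in the same fit, from lists chosen by function. Of 30 ribosome assembly factors, 1 was higher and 7 were lower in GM501 than in KSOM(aa), and 1 was higher and 10 were lower in SAGE 1-step, with median log2 differences of -0.34 and -0.31, where 4.06% and 5.13% of all tested transcript clusters were higher and 3.60% and 4.42% lower. Within embryos 9 to 14, 2 were higher and 16 lower in GM501, and 4 higher and 15 lower in SAGE 1-step. In this set, 42.6% and 37.9% of all tested transcript clusters were higher and 9.40% and 8.60% lower. Among detected transcript clusters, 6.10% and 7.47% were lower over all embryos, and 16.2% and 14.8% within embryos 9 to 14. Within embryos 15 to 18, 1 was higher and 0 lower in GM501 (median 0.02), and 0 higher and 1 lower in SAGE 1-step (median -0.33). In the fit over all embryos, Nop2, a methyltransferase of the large subunit rRNA, had -1.70 for GM501 (adjusted p = 0.0129) and -1.94 for SAGE 1-step (adjusted p = 0.00445), and Fbl, the methyltransferase of small nucleolar particles, -0.55 (adjusted p = 0.0288) and -0.62 (adjusted p = 0.0125). Nop10, a very small protein of the pseudouridylation complex, was the gene that was higher in both media (0.95, adjusted p = 0.0219, and 0.91, adjusted p = 0.0251).

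Of 14 regulators of ribosomal protein mRNAs, 0 were higher and 3 lower in each medium, the same 3 genes (Larp1, Tsc2 and Rps6kb2). Within embryos 9 to 14, 0 were higher and 8 lower in GM501 and 1 higher and 6 lower in SAGE 1-step (medians -0.60 and -0.40). Within embryos 15 to 18, limma called 0 in both media (medians -0.01 and -0.11). Of all tested transcript clusters, 4.06% and 5.13% were higher and 3.60% and 4.42% lower over all embryos. The shares within embryos 9 to 14 were 42.6% and 37.9% higher and 9.40% and 8.60% lower. Of detected transcript clusters, 16.2% and 14.8% were lower in that set, and 6.10% and 7.47% over all embryos. The values that follow are over all embryos. Larp1, which binds the TOP motif, had -1.15 for GM501 (adjusted p = 0.0101) and -1.26 for SAGE 1-step (adjusted p = 0.00452). Tsc2, an inhibitor of mTOR signalling, had -1.05 (adjusted p = 0.00233) and -0.90 (adjusted p = 0.00587), and Mtor itself -0.61 (adjusted p = 0.186) and -0.68 (adjusted p = 0.129). Of 13 genes of the RNA polymerase I machinery, 1 was higher and 1 lower in GM501, and 1 higher and 3 lower in SAGE 1-step. Embryos 9 to 14 alone gave 2 higher and 4 lower, and 4 higher and 4 lower, and embryos 15 to 18 alone gave 0 called. Over all embryos, Ubtf, the factor that keeps rRNA genes open, had -0.97 (adjusted p = 4.62e-04) and -1.16 (adjusted p = 6.56e-05).

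Of 16 elongation factors and other genes with TOP mRNAs, 0 were higher and 1 was lower in GM501 (Eif4b, -1.03, adjusted p = 0.0476), and 0 were higher and 2 lower in SAGE 1-step (Eif4b, -1.36, adjusted p = 0.00776, and Eef2, -1.94, adjusted p = 0.0290). Their median log2 differences were 0.07 and 0.01, below those of the ribosomal protein genes (0.22 and 0.19). Embryos 9 to 14 alone gave 4 higher and 5 lower, and 5 higher and 6 lower, and embryos 15 to 18 alone gave 0 called. Over all embryos, 4.06% and 5.13% of all tested transcript clusters were higher and 3.60% and 4.42% lower. In embryos 9 to 14, 42.6% and 37.9% of them were higher and 9.40% and 8.60% lower. Of 70 mitochondrial ribosomal protein genes, 6 were higher and 2 lower in GM501 and 8 higher and 2 lower in SAGE 1-step, with medians of 0.28 and 0.26. Within embryos 9 to 14, 41 of the 70 were higher and 5 lower in GM501 and 45 higher and 3 lower in SAGE 1-step, where 42.6% and 37.9% of all tested transcript clusters were higher, against 0 called in embryos 15 to 18.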

How the data were processed

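The authors amplified RNA of single blastocysts (WT Pico kit), hybridized MTA-1_0 arrays and made the deposited log2 signals with the Affymetrix Expression Console (SST-RMA: background correction, normalization and 1 value per transcript cluster, annotated on mm10). Which arrays were normalized together is not given in the sources used here. One cell of half-embryo 1a holds a value that no log2 signal can take, so this deposited column was classed as a score when units were checked. The transcript cluster of that cell, 1 in all, was left out of every array, and the rest of the column was used as log2 signals. The other columns of the table used here hold probe numbers and coordinates.
Members and gene lists were chosen with earlier results of these data known. Background was the 90th percentile of 1378 receptor transcript clusters of an array, and 22878 transcript clusters were above it on 50% or more of the arrays in any medium. The 40160 transcript clusters with a symbol were fitted with limma 3.58.1 in R 4.3.3 (medium as the term, trended prior variance, 2-sided, Benjamini-Hochberg, threshold 0.05), each half-embryo as 1 sample. p-values measure the spread between half-embryos. The number of arrays limits the precision (median standard error of a member 0.11 against KSOM(aa)). Sisters are paired by the embryo number of the labels, and the consensus correlation within embryos was 0.374. The fit was tested on simulated data. Alternatives changed the scaling, the transcript clusters or half-embryos fitted, the embryo as a block, array weights and the test (a t-test, which the study names for these arrays).
Named genes were those called, the 5 highest and 5 lowest in each comparison with KSOM(aa), the 3 of each sign between GM501 and SAGE 1-step, paralogs, the 3 at each end of mean signal and of spread in KSOM(aa), X-linked genes, those against the majority in embryos 9 to 14, and the stalk genes, Rpsa, Rps6, Rpl5 and Rpl11. Rps25 and Rpl23 fall outside this rule where named and were chosen after their values were seen. Tables and figures were made with Python 3.11.15, pandas 2.3.3, scipy 1.17.1 and matplotlib 3.10.9.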

Additional observations from a re-analysis of the deposited data

Results flagged for a closer look

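Of 70 groups of 10 half-embryos examined for a single half-embryo far from the others (each named gene, the mean over all genes and the distance between the subunits, in GM501 and in SAGE 1-step), 2 were flagged, and chance flags about 1 in 20. Rpl29 had a log2 signal of 11.33 in half-embryo 9a in GM501, where the other 9 ran from 12.82 to 13.94. Rps14 had 7.92 in half-embryo 10b in SAGE 1-step, where the other 9 ran from 8.27 to 8.57. Both half-embryos belong to embryos 9 to 14.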

How the results depend on the processing

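The number of ribosomal protein genes called depended on the processing (4 in GM501 and 8 in SAGE 1-step against KSOM(aa)). It was 17 in GM501 in a fit of the 2 media only, 15 among detected transcript clusters only, 2 and 5 (GM501 and SAGE 1-step) with arrays centred on the median, 64 and 64 with arrays scaled to Actb, Gapdh and Hprt, 1 and 1 against embryos 1 to 5 of KSOM(aa), 11 and 14 without half-embryo 16b, 38 and 43 with array weights, 1 and 0 with sisters in KSOM(aa) averaged, 26 and 15 by the t-test that the study names after adjustment, and 32 and 18 at its P under 0.01. It was 50 and 51 in embryos 9 to 14 and 0 and 0 in embryos 15 to 18. Centring within the sets, chosen after seeing the data, gave 25 and 26, and 0 and 0. A random replicate block for the embryo gave 3 and 8, and the count between GM501 and SAGE 1-step was 0 under every alternative run, a fixed replicate block included. Over all 40160 transcript clusters, scaling to Actb, Gapdh and Hprt gave 31273 and 33350 higher and 504 and 509 lower. Array weights gave 5687 and 9956 higher and 2455 and 3114 lower. In GM501, the 2 media alone gave 2586 higher and 1703 lower. Detected transcript clusters alone gave 2140 higher and 1768 lower of 22878 in GM501. Against embryos 1 to 5 of KSOM(aa), fewer of all transcript clusters were also called, in both directions and both media. The same held with sisters in KSOM(aa) averaged. At its P under 0.01, the t-test passed more of all transcript clusters in each medium than after adjustment. These changes in the count were therefore not particular to the ribosomal protein genes. Scaling to Actb, Gapdh and Hprt moved the median of all tested transcript clusters to 0.61 and 0.69, and that of the ribosomal protein genes to 0.74 and 0.78. It turned the sign of Rpl3 (0.49 and 0.41), Rpl4 (0.52 and 0.51), Rpl8 (0.44 and 0.47), Rplp0 (0.45 and 0.44), Rps14 (0.43 and 0.44) and Rpsa (0.36 and 0.41), and Actb and Gapdh were themselves low in embryos 9 to 14. In embryos 15 to 18 alone, the median in SAGE 1-step was -0.10, and Rpl31 (-0.0044), Rpl32 (-0.13), Rpl32l (-0.02), Rpl37a (-0.0006), Rps23 (-0.01) and Rps28 (-0.04) turned sign, as did Rpl32 (-0.11) and Rps28 (-0.02) with centring. Signs near 0 are within the error. Beyond the scalings, the cause was not tested.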
